A study of Sus scrofa with 22 samples.

Results

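The cerebella of 22 piglets (Sus scrofa) were compared by the body weight that each animal's label carries, 11 heavier against 11 lighter piglets, across every gene counted. An animal was called heavier at a labelled weight of 2080 or more and lighter at 2060 or less, so the choice used no RNA measurement, and all 22 animals of the series entered. The piglets had had bile duct ligation (BDL), a surgery that blocks the flow of bile into the gut, or a sham operation (SHAM) on day 8 of life, and they were followed for 3 weeks. The heavier group held 6 BDL (5 female, 1 male) and 5 SHAM piglets (3 female, 2 male). The lighter group held 5 BDL (2 female, 3 male) and 6 SHAM piglets (2 female, 4 male). The labels name no strain, litter, unit of weight or age at weighing, and weights are therefore printed without a unit. With nothing known of litters, p-values measure the spread between these animals.

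Body weight in the first weeks of life follows milk intake, growth hormone and insulin-like growth factors, and it falls behind in animals that are ill or poorly absorb fat, as happens without bile. In the pig the cerebellum is still being built at this age: precursor cells at its surface divide under the Sonic hedgehog signal of Purkinje cells and become granule neurons, and oligodendrocytes wrap axons in myelin. The comparison asked which cerebellar transcripts went with weight once surgery and sex were in the model, and whether their direction was the same in BDL and in SHAM animals.

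Weights averaged 2273 ± 175 in the heavier and 1805 ± 147 in the lighter group (mean ± SD, n = 11 each). Inside BDL they were 2280 ± 170 (n = 6) and 1760 ± 154 (n = 5). Inside SHAM they were 2264 ± 200 (n = 5) and 1843 ± 143 (n = 6). The animals nearest the line were BDL replicate 9 and SHAM replicate 8, both at 2080, on the heavier side, and SHAM replicate 7 at 2060 and BDL replicate 7 at 2000 on the lighter side. Sex and weight went partly together: 12 females weighed 2133 ± 315 and 10 males 1926 ± 210 (two-sided permutation p = 0.0936, 0.468 adjusted over 5 library comparisons). For this reason sex stood in the model beside surgery.

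**Figure D1:**
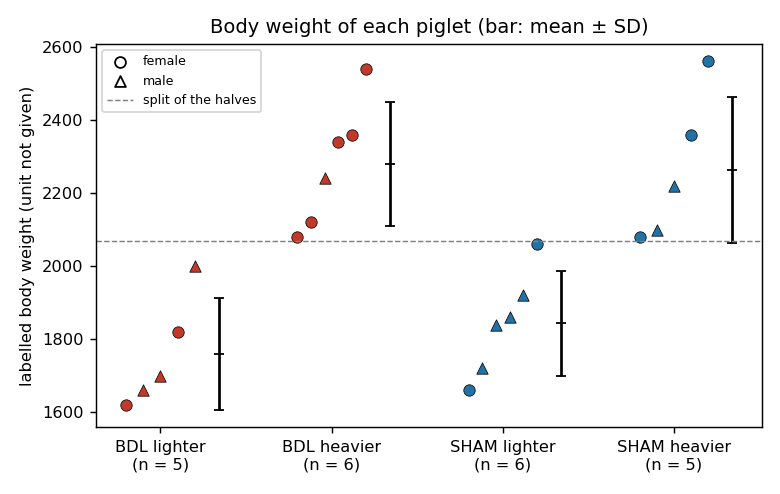
Labelled body weight (y axis, no unit given) of each of the 22 piglets by surgery and weight group, circles for females and triangles for males, with the mean and SD beside each group and a dashed line between 2060 and 2080. Only 1 heavier BDL animal is male and only 2 lighter BDL animals are female.

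Libraries held between 14811464 and 20046909 gene counts, and the weight groups did not differ beyond their spread in counts, genes detected, the share of reads in no gene or the animal number (permutation p between 0.534 and 0.952). The levels of cell markers matched the tissue label. GABRA6, a receptor subunit of mature granule neurons, stood between 319 and 423 CPM (counts scaled to a library of 1000000 counts) in every library, and CALB1, the Purkinje cell calbindin, between 286 and 495. Transthyretin (TTR), made by the choroid plexus, ran from 1.67 to 1390 CPM. In bulk tissue, fewer cells of a type and less RNA per cell cannot be told apart.

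No gene passed the test between heavier and lighter piglets. edgeR's quasi-likelihood test, with sex and surgery in the model, called 0 of 14994 genes (0%) at a Benjamini-Hochberg adjusted p under 0.05, and the smallest adjusted p was 0.433. At an unadjusted p under 0.05 there were 1191 genes (7.94%), 698 higher (4.66%) and 493 lower (3.29%) in the heavier group. limma-voom and DESeq2 also called 0, with 1130 and 1272 genes at that unadjusted p. The median size of the log2 difference over all genes was 0.074. For 61.7% of genes the 95% interval of the difference lay inside 1.25-fold, for 85.3% inside 1.5-fold and for 97.4% inside 2-fold. The genes below are therefore given as values, none of them as a change.

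On the higher side, DTL, a ubiquitin ligase component that acts in DNA replication (chromosome 9, 131225840 to 131275426 on Sscrofa11.1), ran from 1.5 to 3.6 CPM with a median of 2.28 in the heavier animals. In the lighter animals it ran from 1.23 to 1.94 with a median of 1.5. All 11 heavier animals were above the lighter median and 8 were above the highest lighter animal. The log2 fold change, heavier over lighter, was 0.72 ± 0.15 (SE, adjusted p = 0.433), 0.62 ± 0.24 inside BDL and 0.75 ± 0.23 inside SHAM. DTL is a rare transcript here, with 20 to 54 counts per library.

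MEGF10, an engulfment receptor of astrocytes (chromosome 2, 130226222 to 130403960), had a lowest, median and highest CPM of 43.5, 53.3 and 65.0 in the heavier group. The lighter group had 29.8, 45.8 and 56.9, so the groups overlapped, with 4 heavier animals above and 3 lighter animals below the whole other group. Its log2 fold change was 0.36 ± 0.08 (adjusted p = 0.433). Both lighter BDL females, replicates 2 and 4, were the lowest animals at 29.8 and 33.3 CPM.

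YARS2 encodes the mitochondrial tyrosyl-tRNA synthetase (chromosome 5, 41561563 to 41584534). Its CPM was 5.3, 6.54 and 8.25 (lowest, median and highest) in the heavier group and 3.77, 5.2 and 5.97 in the lighter group. All 11 heavier animals lay above the lighter median, and 6 lay above every lighter animal. On the log2 scale the difference was 0.39 ± 0.09 (adjusted p = 0.551).

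On the lower side the smallest p belonged to NRGN, neurogranin, a calmodulin-binding protein of dendritic spines and a known thyroid hormone target (chromosome 9, 51967313 to 51977197). Its lowest, median and highest CPM were 115, 133 and 158 in the heavier group and 137, 152 and 197 in the lighter group. Here 8 heavier animals were below every lighter animal and 5 lighter animals were above every heavier animal. The log2 fold change was -0.29 ± 0.06 (adjusted p = 0.433), with -0.36 ± 0.08 inside BDL and -0.24 ± 0.09 inside SHAM.

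NRROS, a microglial protein that presents latent TGF-beta (chromosome 13, 133470641 to 133496218), stood at 16.9, 19.6 and 21.8 CPM in the heavier and 17.5, 23.9 and 32.4 in the lighter group. Inside BDL the groups did not overlap: the 5 lighter animals were at 22.3, 23.9, 25.6, 29.5 and 32.4 CPM and the highest heavier animal was at 21.8. Inside SHAM they overlapped, with 17.5 to 28.5 CPM in the lighter and 19.0 to 20.9 in the heavier animals. The log2 fold change was -0.34 ± 0.08 (adjusted p = 0.551), and in males alone it was near 0, at -0.009.

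PRKCQ, protein kinase C theta (chromosome 10, 64442588 to 64596528), had 9.57, 11.3 and 14.3 CPM in the heavier and 9.8, 15 and 22.7 in the lighter group. The lighter animals spread over a wider range, and 8 of them were above every heavier animal. The log2 fold change was -0.50 ± 0.13 (adjusted p = 0.551), with -0.44 ± 0.16 inside SHAM and -0.50 ± 0.17 inside BDL.

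**Figure D2:**
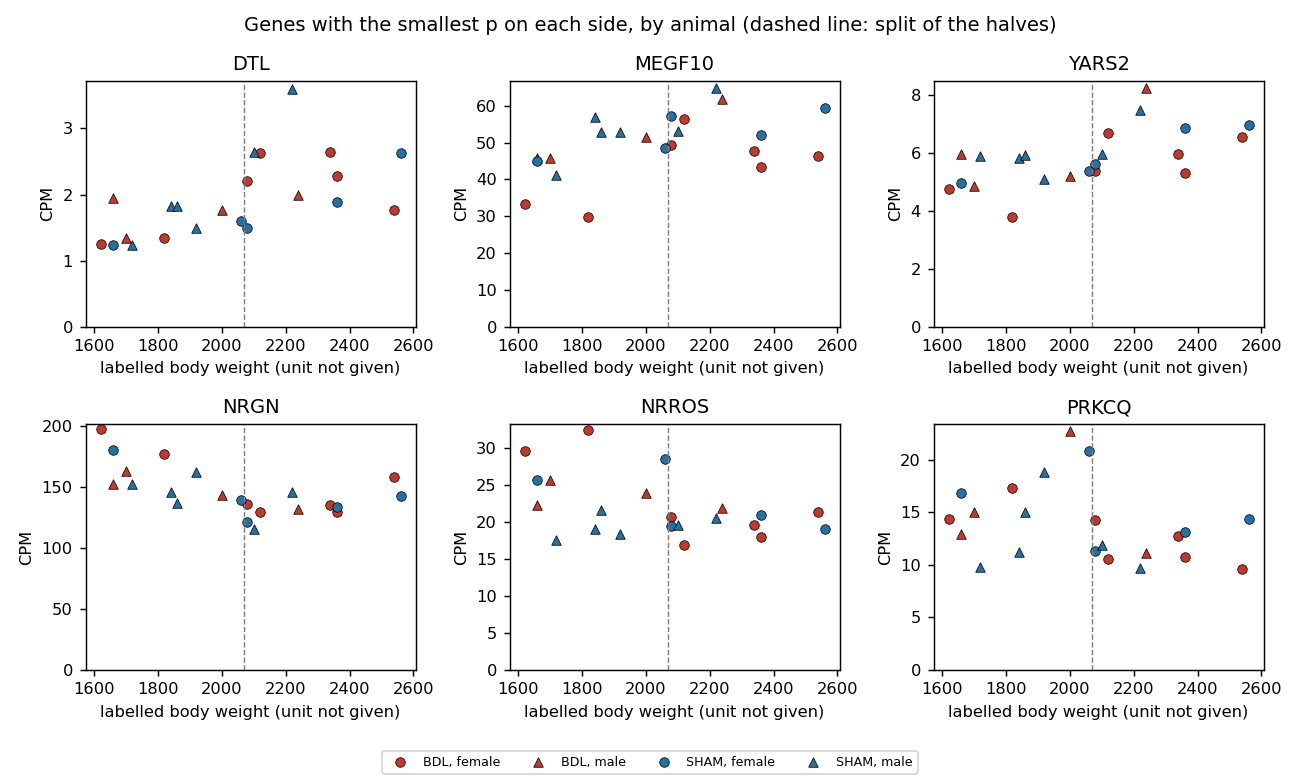
CPM (y axes, from 0) of DTL, MEGF10, YARS2, NRGN, NRROS and PRKCQ against labelled body weight (x axes, no unit given) in each of the 22 piglets, red for BDL, blue for SHAM, circles for females and triangles for males, with a dashed line at the split. DTL, MEGF10 and YARS2 lie higher and NRGN, NRROS and PRKCQ lower to the right of the line, and in every panel the 2 groups overlap.

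The other genes with the smallest p stood at adjusted p = 0.551 as well. Higher in the heavier group were PLCG1, phospholipase C gamma (129 ± 8.74 against 113 ± 8.77 CPM, log2 0.21 ± 0.05), and KIT, a receptor kinase of molecular layer interneurons (240 ± 37.5 against 196 ± 23.4, 0.34 ± 0.09). The presynaptic scaffold gene RIMBP2 was at 0.21 ± 0.05 and GRIP2, a partner of AMPA receptors, at 0.38 ± 0.10. ALDH1A3, which makes retinoic acid, was at 0.68 ± 0.17, and inside SHAM its groups did not overlap (1.61 to 2.59 CPM in heavier, 0.846 to 1.43 in lighter animals). The phospholipase gene PLA1A was at 0.52 ± 0.14 and ARHGAP30, a GTPase regulator of blood-derived cells, at 0.71 ± 0.19.

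Lower were CBLN1, the cerebellin that granule neurons release onto Purkinje cell synapses (1390 ± 101 against 1560 ± 86 CPM, log2 -0.19 ± 0.05, and -0.19 inside each surgery), and KCNIP1, a potassium channel subunit gene (-0.25 ± 0.07). The farnesyltransferase subunit gene FNTB was at -0.20 ± 0.05 and FAM110B at -0.21 ± 0.06. SPACA9 was at -0.61 ± 0.17, CMTM8 at -0.40 ± 0.11 and TBXAS1, thromboxane synthase, at -0.72 ± 0.20. These 20 genes kept their sign in all 22 fits that left out 1 animal and in all 12 other settings. They were picked for their small p in these animals, so their steadiness is no independent evidence. The same holds where their values inside BDL and inside SHAM are alike.

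Among the lists of genes from textbook biology, the interferon response list leaned most to the heavier side: all 28 of its measured members were higher, with a median log2 difference of 0.42, where 50.3% of all genes tested were higher and their median was 0.001. At an unadjusted p under 0.05 there were 7 members against 4.66% of all genes, and 0 after adjustment. TAP1, the peptide transporter of antigen presentation, was at 28.7 ± 8.14 against 20.4 ± 7.13 CPM (0.43 ± 0.17, adjusted p = 0.582), and PARP14 at 0.61 ± 0.24. CXCL10, a chemokine that draws T cells, was at 1.41 ± 0.59.

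Beside that list, the T cell marker CD2 stood at 2.26 ± 1.31 CPM in the heavier and 1.01 ± 0.718 in the lighter group (1.09 ± 0.38, adjusted p = 0.581) and CD8A at 0.76 ± 0.35 (adjusted p = 0.612). The B cell marker CD79A was at -0.02 ± 0.23. Lower values were those of HBB, the beta globin of red cells (-1.02 ± 0.46), ALAS2, an enzyme of haem synthesis (-0.91 ± 0.39), and the platelet gene PPBP (-0.73 ± 0.29). The summed level of the 6 measured blood cell markers ran from 6.13 to 15.6 CPM in the heavier and 4.96 to 22 in the lighter group. Their part in the interferon result was not tested.

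The interferon difference varied in size with the animals included. The mean log2 CPM of the list was 4.10 ± 0.554 in the heavier and 3.55 ± 0.659 in the lighter group (n = 11 each), and the groups overlapped. In the heavier group it was low, at 3.11, in SHAM replicate 8, an animal at the line. In the lighter group it was high, at 4.71, in BDL replicate 4, the lightest animal of the study. The list's median over all animals was above 0 in each of the 22 fits that left out 1 animal, from 0.248 without BDL replicate 6, the only heavier BDL male, to 0.573 without BDL replicate 4. It was 0.809 in males alone and 0.091 in females alone.

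All 21 measured microglia and macrophage markers were on the higher side too, with a median of 0.201 and 3 members (14.3%, against 4.66% of all genes) higher at an unadjusted p under 0.05. P2RY12 and P2RY13, purine receptors of resting microglia, were at 0.41 ± 0.14 and 0.68 ± 0.23 (adjusted p = 0.551 and 0.572). AIF1, which encodes IBA1, differed little, with 12.4 ± 3.2 against 11.8 ± 1.71 CPM (0.09 ± 0.14). NRROS, the microglial gene described above, is not on this list and was lower in the heavier group (-0.34). The summed level of the markers overlapped widely, from 240 to 467 CPM in the heavier and 282 to 396 in the lighter group. Here too 1 animal weighed heavily: without BDL replicate 6 the median was 0.072, and without SHAM replicate 1 it was 0.318.

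**Figure D3:**
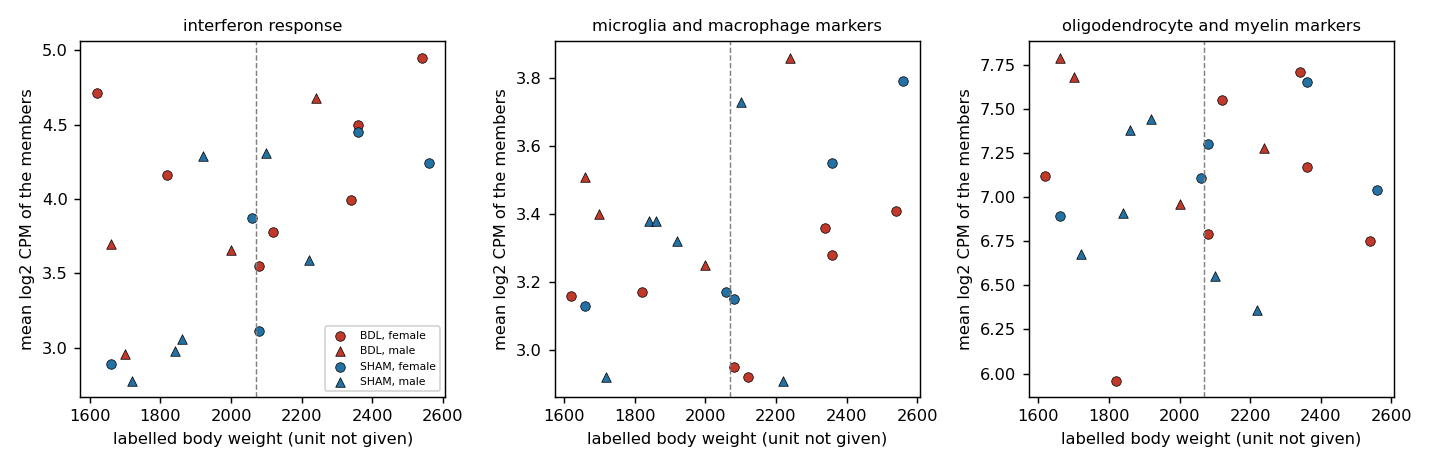
Mean log2 CPM of the measured members of 3 gene lists (y axes) against labelled body weight (x axes, no unit given) in each of the 22 piglets, red for BDL, blue for SHAM, circles for females and triangles for males, with a dashed line at the split. Interferon genes range from 2.78 to 4.95 on both sides of the line, and the myelin panel shows the lighter BDL female of replicate 2 lowest at 5.96.

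Genes of the granule cell lineage had medians of opposite sign by stage. Of 18 precursor and Hedgehog pathway genes, 13 were higher (median 0.118) and 7 had an unadjusted p under 0.05, all higher, where 50.3% of all genes were higher and 4.66% were higher at that p. They included DCX, doublecortin of migrating neurons (27.9 ± 9.33 against 19.5 ± 7.01 CPM, 0.67 ± 0.22, adjusted p = 0.575), CXCR4 (0.28 ± 0.10), MYCN, a driver of precursor division (0.28 ± 0.10), CCND1 (0.24 ± 0.09), NHLH2 (0.25 ± 0.09), GLI2 (0.41 ± 0.18) and PTCH1, the Hedgehog receptor (0.17 ± 0.07). ATOH1, the factor that defines the precursors, stood at 0.07 ± 0.20. Of 20 mature granule neuron markers, 15 were lower (49.7% of all genes were; median -0.073), among them CBLN3 (-0.17 ± 0.05) and GABRD (-0.19 ± 0.08) besides CBLN1. GABRA6 itself was at -0.05 ± 0.05 and ZIC1 at 0.00 ± 0.07. Cell cycle genes had 13 of 18 higher (median 0.087) and 0 at an unadjusted p under 0.05, with TOP2A, a topoisomerase of dividing cells, at 0.28 ± 0.15. The cell cycle median was -0.135 in females, 0.346 in males and 0 without SHAM replicate 4.

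Most lists of inhibitory neuron and glial markers had medians above 0 over all 22 animals, where 50.3% of all genes were higher. The myelin list did not, with 10 of 22 members higher and 12 lower (median -0.002). Of 14 cerebellar interneuron markers 12 were higher (median 0.15), KIT and NXPH1, a synaptic ligand (0.31 ± 0.12), with the smallest p. Of 24 Purkinje cell markers 17 were higher (median 0.072), with GAD2, an enzyme of GABA synthesis, at 0.21 ± 0.07 and LHX1 at 0.16 ± 0.06, but CALB1 at 0.01 ± 0.09 and PCP2 at -0.02 ± 0.08. Of 16 astrocyte and Bergmann glia markers 14 were higher (median 0.093). SLC1A3, the glutamate transporter of Bergmann glia, stood at 1020 ± 90.6 against 920 ± 111 CPM (0.22 ± 0.06, adjusted p = 0.551), while GFAP was at -0.04 ± 0.15. The astrocyte median was 0.335 in females and -0.061 in males, and 0.035 without BDL replicate 2. Of 16 oligodendrocyte precursor markers 12 were higher (median 0.055), with PDGFRA, their growth factor receptor, at 0.23 ± 0.10. That list's median was 0.316 in females, -0.189 in males and 0.008 to 0.13 when 1 animal was left out, and the Purkinje median was -0.003 in males. These medians were larger in BDL than in SHAM: 0.248 and 0.011 for interneuron, 0.119 and 0.017 for Purkinje cell markers. They were 0.252 and 0.01 for astrocyte and 0.133 and 0.043 for oligodendrocyte precursor markers. Each of these SHAM medians fell below 0 in some fits that left out 1 animal. In BDL only the oligodendrocyte precursor median did so, at -0.006 without BDL replicate 2. Without that animal the BDL medians were 0.116 for astrocyte and 0.064 for Purkinje cell markers. The BDL interneuron median was lowest at 0.217, without BDL replicate 3.

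Endothelial markers were mostly higher and those of the choroid plexus mostly lower. ERG, a transcription factor of endothelial cells, stood at 5.25 ± 1.08 CPM in the heavier and 3.6 ± 0.711 in the lighter group (0.52 ± 0.14, adjusted p = 0.551). Of 14 endothelial markers 13 were higher (median 0.073, and -0.015 in females alone), where 50.3% of all genes were. Inside BDL 8 were higher (median 0.035, and -0.116 without BDL replicate 6) and inside SHAM 13 (median 0.12). Of 13 pericyte and smooth muscle markers 7 were higher and 6 lower (median 0.09). Of 11 choroid plexus and ependymal markers 9 were lower (median -0.19). TTR was at 108 ± 220 against 311 ± 441 CPM (-2.34 ± 1.17, adjusted p = 0.64) and the chloride channel gene CLIC6 at 1.76 ± 3.47 against 5.72 ± 8.69 (-2.37 ± 0.91). Single animals set those means: TTR was 738 CPM in BDL replicate 1 on the heavier side, and 1390 in BDL replicate 4 and 863 in SHAM replicate 10 on the lighter side. Without BDL replicate 4 the choroid median was -0.036, and it was -0.597 in males and -0.04 in females.

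The genes of growth hormone and insulin signals lay on both sides. Of 18 measured growth hormone, insulin-like growth factor (IGF) and insulin genes, 10 were higher and 8 lower, with a median of 0.014 and 0 at an unadjusted p under 0.05. The IGF receptor gene IGF1R stood at 24.7 ± 6.5 against 22.7 ± 3.92 CPM (0.22 ± 0.12), the insulin receptor gene INSR at 0.15 ± 0.10 and the growth hormone receptor gene GHR at 6.81 ± 0.975 against 6.65 ± 0.472 (0.04 ± 0.09). The binding protein genes IGFBP2 and IGFBP5 were at -0.27 ± 0.30 and 0.00 ± 0.15, and PAPPA2, a protease that frees IGF, at -0.16 ± 0.11. IGF1 was too low for the count filter, with 0 to 13 counts per library. Symbols for IGF2 and MKI67 matched no identifier here.

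Among appetite and energy-sensing genes, LEPR, the leptin receptor, stood at 0.881 ± 0.471 CPM in the heavier and 1.57 ± 0.722 in the lighter group (-0.87 ± 0.32, adjusted p = 0.582). The estimate was -0.80 ± 0.53 inside BDL and -0.93 ± 0.34 inside SHAM. NPY1R, a neuropeptide Y receptor, was at 0.20 ± 0.07. Of 13 members of that list 8 were higher and 5 lower. At an unadjusted p under 0.05 there were 1 higher (7.69%) and 2 lower (15.4%), against 4.66% and 3.29% of all genes. The fasting genes CPT1A, which lets fatty acids into mitochondria, and PDK4, which spares glucose, were at 0.14 ± 0.06 and -0.07 ± 0.14, and TXNIP, a sensor of glucose, at 0.02 ± 0.11. The glucocorticoid target FKBP5 was at 0.04 ± 0.10, with 8 of 15 members of its list higher.

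Thyroid hormone genes showed values on both sides. In that list HR, a thyroid hormone-responsive corepressor, was at -0.06 ± 0.11. NRGN belongs to this list as well, and 8 of its 13 members were higher. The mTORC1, ribosomal protein, glycolysis and respiratory chain lists had medians between -0.027 and -0.017, with 5 of 23 ribosomal protein genes and 6 of 24 nuclear respiratory genes higher. In each of those 4 lists at most 1 gene had an unadjusted p under 0.05.

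**Figure D4:**
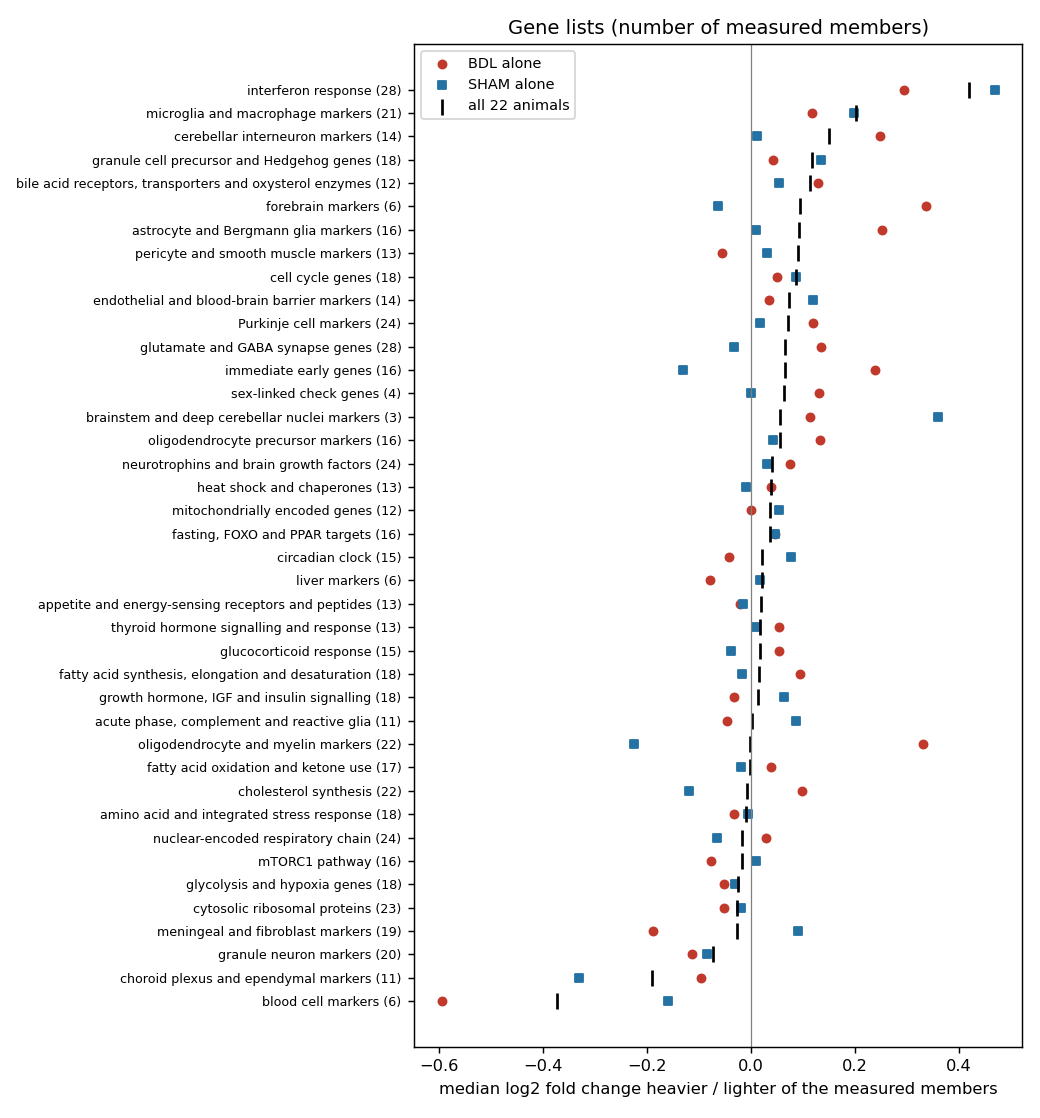
Median log2 fold change of heavier against lighter piglets (x axis) over the measured members of 40 gene lists (y axis, number of members in brackets) in all 22 animals (black bars), in BDL alone (red circles) and in SHAM alone (blue squares). The interferon list is farthest to the right, at 0.42, and the myelin list shows BDL at 0.331 and SHAM at -0.226.

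Over the whole transcriptome the direction inside BDL was little related to that inside SHAM. Separate fits in the 11 BDL and the 11 SHAM animals, which share no animal, gave the same sign for 7761 of 14994 genes, or 51.8% (95% binomial interval 50.96% to 52.56%, for counting only, since genes are not independent). Across genes the estimates had Pearson's r = 0.0915 and Spearman's rho = 0.0596. Of the 2119 genes at an unadjusted p under 0.05 in BDL 1185 (55.92%) shared the sign, and of the 480 at that p in SHAM 303 (63.12%). In all 53 genes (0.353%) were under it in both, 37 with the same and 16 with opposite signs. The share over all genes ran from 48.59% without SHAM replicate 1 to 55.2% without SHAM replicate 7.

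Complete separation was rare in each surgery. The weight groups did not overlap for 51 genes (0.34%) inside BDL, 20 of them higher and 31 lower in the heavier animals. Inside SHAM it was 46 genes (0.307%), 30 higher and 16 lower. No gene separated the weight groups in both surgeries, in the same or in opposite directions, and none did over all 22 animals.

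**Figure D5:**
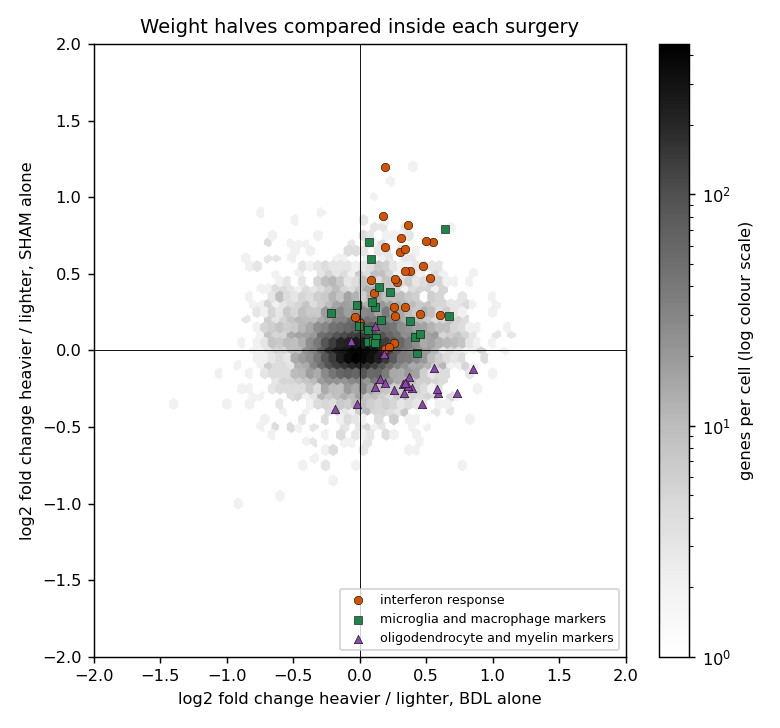
Log2 fold change of heavier against lighter piglets inside BDL (x axis) and inside SHAM (y axis) for the genes tested, as a grey density with a log colour scale, with interferon (orange circles), microglia (green squares) and myelin genes (purple triangles) on top. Axes stop at 2, and 15 genes lie outside, CXCL10 among them at 2.78 in SHAM. Interferon and microglia genes lie mostly at the upper right and 19 of 22 myelin genes have opposite signs.

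Of the 40 lists, 21 had medians of the same sign in both surgeries. The interferon list was at 0.295 in BDL and 0.469 in SHAM, with 27 of 28 members higher in BDL, 28 in SHAM and 27 in both. Of all genes 50.2% were higher in BDL, 49.7% in SHAM and 25.86% in both. At an unadjusted p under 0.05 there were 0 interferon members in BDL, against 14.1% of all genes. In SHAM there were 5, against 3.2% of all genes. In BDL the sign of the median depended on 1 animal: it was -0.168 without BDL replicate 6, the only heavier BDL male. With sex in the model, that fit compared weight among females only, 5 heavier and 2 lighter. Without BDL replicates 2 and 4, the only lighter BDL females, the median was 1.213. That fit compared BDL replicate 6 with the 3 lighter males. In SHAM it stayed between 0.243 and 0.79 whichever animal was left out. Microglia markers were at 0.118 and 0.198, with 17 of 21 higher in both and medians above 0 in each fit that left out 1 animal. Granule neuron markers were at -0.113 and -0.085, with 13 of 20 lower in both, and precursor genes at 0.043 and 0.134, with 10 of 18 higher in both. Of all 14994 genes 49.8% were lower in BDL, 50.3% in SHAM and 3884 genes in both. The granule neuron and precursor medians also kept their sign whichever animal was left out.

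Inside BDL, edgeR called 0 of 14994 genes (0%), with 2119 (14.1%) at an unadjusted p under 0.05, 1103 higher (7.36%) and 1016 lower (6.78%), and a smallest adjusted p of 0.236. MEGF10 had the smallest p. Its 6 heavier BDL animals had a lowest, median and highest CPM of 43.5, 48.6 and 62.0, and its 5 lighter animals stood at 29.8, 33.3, 45.8, 45.8 and 51.6 (0.54 ± 0.09, adjusted p = 0.236). PRKG1, a cGMP-dependent kinase of Purkinje cells, was at 0.86 ± 0.17. The homeobox gene PKNOX2 was at -0.43 ± 0.08, with both lighter females high at 64.0 and 62.5 CPM.

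AGAP3, a GTPase regulator of synapses, separated the groups inside BDL: 205, 211, 211, 237 and 245 CPM in the lighter and 169 to 202 in the heavier animals (-0.35 ± 0.07). Inside SHAM it was at 0.01 ± 0.09. CYP7B1, an enzyme that clears oxysterols and makes bile acid precursors, was at 1.16 ± 0.24 inside BDL and 0.06 ± 0.20 inside SHAM. Its 2 lowest animals were again the lighter BDL females, at 1.34 and 2.35 CPM.

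The count inside BDL turned on the animals included and on the test. DESeq2 called 180 of 14994 genes, 119 higher and 61 lower. With limma-voom, other scaling, no count filter, no sex term or weight as a number the count there was 0. Of the 180, 116 had the same sign inside SHAM, where 51.76% of all genes tested had the same sign in both surgeries with edgeR. Among the 180 were MEGF10 (DESeq2 adjusted p = 0.00155), AGAP3 (0.00275), PKNOX2 (0.00366), PRKG1 (0.00384) and CYP7B1 (0.00429). edgeR called 145 of 14994 genes without BDL replicate 8, these 5 included, 81 of them also called by DESeq2. The genes at an unadjusted p under 0.05 went down to 752 with no sex term and to 744 with weight as a number.

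Inside SHAM, edgeR called 0 of 14994 genes (0%), with 480 (3.2%) at an unadjusted p under 0.05, 317 higher (2.11%) and 163 lower (1.09%), and a smallest adjusted p that rounds to 1. The smallest p belonged to HLA-DRA, as the symbol table names a pig chain of MHC class II, which shows peptides to helper T cells. The 5 heavier SHAM animals stood at 4.51, 9.46, 18.7, 19.8 and 24.7 CPM and the 6 lighter animals between 3.44 and 5.36 (1.87 ± 0.38). The heavier animal within the lighter range was SHAM replicate 8, at a weight of 2080. Inside BDL HLA-DRA ran from 3.24 to 28.5 CPM in heavier and 2.51 to 18.9 in lighter animals (0.51 ± 0.61).

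LY86, a partner of Toll-like receptors on myeloid cells, separated the SHAM groups at 1.17 to 2.65 against 0.43 to 1.14 CPM (1.29 ± 0.29), and stood at -0.57 ± 0.43 inside BDL. On the lower side in SHAM were COL21A1, a collagen gene (-0.83 ± 0.23), and PDGFRL (-0.35 ± 0.10), at 0.23 ± 0.29 and 0.08 ± 0.11 inside BDL. DESeq2 called 3 genes in SHAM, CXCL9, SLA-DQB1 and HLA-DRA. Without SHAM replicate 8, edgeR called 8, and without SHAM replicate 3 it called 1. There were 1115 genes at an unadjusted p under 0.05 without SHAM replicate 1.

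The difference between the surgeries was tested directly. The interaction of weight group and surgery called 0 of 14994 genes (0%) with edgeR and with DESeq2, and 765 (5.1%) had an unadjusted p under 0.05 with edgeR, 813 with DESeq2. Of the 765, the estimate was higher in BDL for 315 (2.1%) and higher in SHAM for 450 (3%). The smallest p on the side of BDL belonged to CRBN, cereblon, a ubiquitin ligase subunit (0.47 ± 0.11 inside BDL, -0.13 ± 0.09 inside SHAM), and DDR2, a collagen receptor (1.30 ± 0.33 and -0.20 ± 0.21). On the side of SHAM stood RSPH3, a cilium gene (-0.43 ± 0.22 and 0.69 ± 0.20), and MPHOSPH8, a silencing factor (-0.22 ± 0.06 and 0.08 ± 0.07). The interaction had an adjusted p of 0.886 for all 4.

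Lists with opposite medians in the 2 surgeries numbered 19, and the myelin list had the widest gap. Of 22 oligodendrocyte and myelin genes 19 were higher inside BDL (median 0.331) and 2 inside SHAM (median -0.226). MBP, myelin basic protein, was at 0.47 ± 0.50 inside BDL and -0.35 ± 0.41 inside SHAM. In BDL the 5 lighter animals held 2600, 8070, 8310, 13600 and 16000 CPM of MBP, both ends of the whole range, and the heavier animals lay between, from 6120 to 14000. Without BDL replicate 2, the animal at 2600, the BDL median of the list was -0.075, and without replicates 2 and 4 it was -0.247. With sex in the model, the latter fit compared only BDL replicate 6 with the 3 lighter males. The SHAM median of the list ran from -0.396 to -0.027 when 1 animal was left out.

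Cholesterol synthesis genes, which oligodendrocytes use in quantity, followed the same lines, with 16 of 22 higher inside BDL (median 0.098) and 4 inside SHAM (-0.12). Immediate early genes, which respond to neuronal activity within minutes, had 11 of 16 higher in BDL (0.238) and 3 in SHAM (-0.131). Without BDL replicates 2 and 4 both BDL medians were below 0, at -0.17 and -0.124. That fit again set only BDL replicate 6 against the 3 lighter males. The SHAM medians moved too: cholesterol synthesis was at -0.001 without SHAM replicate 1 and immediate early genes at 0.064 without SHAM replicate 9. Meningeal and fibroblast markers were at -0.188 in BDL and 0.09 in SHAM. They were at 0.103 in BDL without BDL replicate 2 and at -0.003 in SHAM without SHAM replicate 4.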

How the data were processed

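For each animal the authors deposited 1 table of raw counts, the reads assigned to each gene. The submitters' processing notes name Trim Galore, HISAT2, HTSeq, DESeq2 and the build Sscrofa11.1. They give no versions and no strand setting, and reads of overlapping antisense genes or near-identical copies cannot be told apart. Lines that name no gene held 29.9% to 34.6% of counted reads and were left out. Of 31907 identifiers 15029 matched a symbol. Positions are RefSeq's on Sscrofa11.1. No pair of the 231 library pairs agreed within sampling noise (chi-square per degree of freedom 6.82 to 48.1).

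Genes were kept by filterByExpr (minimum count 10, minimum total 15), which left 14994. edgeR 4.0.16 in R 4.3.3 was fitted robustly with TMM scaling, on sex, surgery and weight group, on sex and weight group in each surgery alone, and with an interaction term. Standard errors are the log2 fold change divided by the root of F. limma 3.58.1 and DESeq2 1.42.0 were alternatives, as were other scaling, no count filter, no sex term, single sexes, weight as a number, covariates for animal number and no-gene share, and leaving out animals. The test was checked on simulated counts. Library measures were compared with 100000 permutations.

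The weight groups and gene lists were chosen with earlier results of these data known. Lists share some genes. Named genes are the 10 smallest p on each side, up to 2 per list, 2 per side of each other fit, and a fixed set. Members named beyond these were chosen after their values were seen. CPM are counts divided by the TMM-scaled library size, times 1000000. Results for some genes are not reported here.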

Additional observations from a re-analysis of the deposited data

Results flagged for a closer look

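In each of the 4 groups of surgery and weight, the highest and the lowest animal were compared with the rest by Dixon's test for 121 named genes, 40 gene lists and the library measures. Of 656 groups 43 had an animal that stood apart, and chance gives about 1 in 20.

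Choroid plexus genes recurred in the same animals. TTR stood at 738 CPM in BDL replicate 1 (heavier, next value 44.3), at 1390 in BDL replicate 4 (lighter, next 110) and at 244 in SHAM replicate 8 (heavier, next 57). CLIC6 was at 11.9, 29.7 and 2.95 CPM in those animals and KCNJ13, a potassium channel gene, at 20.8 and 34.7 in both BDL animals. The mean log2 CPM of the choroid plexus list was 4.59 in BDL replicate 1 and 4.79 in BDL replicate 4.

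Among heavier BDL animals, replicate 8 was highest for COX4I1 (28.3 CPM), IGFBP5 (119), KCNIP1 (44.7), NPAS2 (18.5) and NTF3 (22.6). Replicate 10 was highest for HK1 (383) and NRGN (158) and lowest for MVD (95.3). Replicate 6 was highest for ADM (1.99) and lowest for HR (20). Replicate 1 was highest for ALB (5.34), replicate 3 lowest for HACD1 (21.3) and replicate 9 lowest for PLA1A (4.57).

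Among lighter BDL animals, replicate 5 was highest for FKBP5 (27.6 CPM) and lowest for PAPPA2 (30.3), and replicate 7 was highest for FOSL2 (16). Replicate 2 was lowest for the bile acid transporter gene SLC51B (0.64) and had the highest cell cycle mean (3.68 on the log2 scale). Replicate 4 had the lowest mean of the amino acid stress list (4.8).

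Among heavier SHAM animals, replicate 2 was highest for AGAP3 (231 CPM), replicate 1 for NXPH1 (6.73) and replicate 8 for PPBP (1.28). Replicate 4 was lowest for HK1 (321) and for the mean of the sex-linked list (5.83), and replicate 11 was lowest for ND2 (1920). Among lighter SHAM animals, replicate 9 was lowest for CLOCK (87.3) and TXNIP (86.6) and highest for FNTB (65.5) and NPAS2 (18.7). Replicate 5 was highest for HBB (11.1) and the pericyte list (2.96), and replicate 6 was highest for NTF3 (34.5) and lowest for the precursor list (4.61).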

How the results depend on the processing

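No paired analysis was possible because the replicate numbers were given in accession order and tie no BDL animal to a SHAM animal or a heavier to a lighter one. The count of 0 genes over all 22 animals was the same in all 12 other settings and in the 22 fits that left out 1 animal (0 to 0). The interaction was fitted in 5 other settings and in the 22 fits that left out 1 animal, and its count was 0 in each. Inside BDL the count was 180 with DESeq2 and ran from 0 to 145 when 1 animal was left out. Inside SHAM it was 3 with DESeq2 and 1 with no count filter, where the gene was KLRK1, and ran from 0 to 8 when 1 animal was left out. The share of genes with the same sign in both surgeries was 50.83% with no count filter and 52.84% without BDL replicates 2 and 4 together, a setting chosen after seeing the data, and ran from 48.59% to 55.2%. The causes were not tested. Of 3996 estimates of named genes under other settings, 3937 shifted by less than the SD of the gene's log2 CPM between animals within groups. Another 49 shifted further and 10 passed the threshold. Of 1360 list medians, 1349 shifted by less than the SD between animals of the list's mean log2 CPM, and 11 moved further. Both margins are spreads between animals, not errors of the estimates. Sex limits the comparison inside BDL, since 1 heavier animal is male and 2 lighter animals are female. With sex in the model, the BDL fit without replicate 6 compared weight among females only. The BDL fit without replicates 2 and 4 set replicate 6 against the 3 lighter males. In DTL and other transcripts with few counts, depth limits the precision.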

Other observations

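Several genes with small p inside SHAM are given here by animal. Their values were known when they were picked. None passed edgeR's test there with all 11 SHAM animals and the count filter. CXCL9, a chemokine that interferon gamma induces and that draws T cells, was at 0.0556, 2.53, 9.26, 13.3 and 16.0 CPM in the 5 heavier SHAM animals. In the 6 lighter SHAM animals it ran from 0.114 to 0.399, with 27 counts in all 6 libraries together. The log2 fold change was 4.83 ± 1.03 (adjusted p = 1 with edgeR). With DESeq2 the adjusted p was 0.00791 and without SHAM replicate 8 it was 0.00198. The heavier animal without CXCL9 was SHAM replicate 8, at a weight of 2080. Inside BDL the weight groups overlapped (1.02 ± 0.89): lighter animals stood at 0.215, 0.466, 4.22, 4.68 and 5.27 CPM, and heavier animals at 0.116 to 11.5 with a median of 6.63.

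KLRK1, an activating receptor of natural killer and CD8 T cells, was at 0.111 to 0.772 CPM in the heavier and 0 to 0.0652 in the lighter SHAM animals. It had 142 counts in all. With no count filter edgeR called KLRK1 inside SHAM (adjusted p = 0.0234). Inside BDL its weight groups overlapped, with lighter replicates 2, 4 and 7 at 1.02, 0.887 and 0.715 CPM and a highest heavier animal at 0.72. The MHC class II gene SLA-DMA, at 2.84 to 5.9 against 1.97 to 2.74 CPM, and the interleukin 6 receptor gene IL6R, at 8.98 to 11.9 against 4.73 to 8.96 CPM, also separated the SHAM weight groups. UBD, an interferon-induced ubiquitin-like gene, was at 1.98 ± 0.48, and CXCL11 had 3 counts in all lighter SHAM libraries together and 245 in the heavier ones. Without SHAM replicate 8, edgeR called UBD (adjusted p = 0.0381) and CXCL11 (0.00404).

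With weight as a number, per standard deviation of the 22 weights, genes of leukocytes and microglia held several of the smallest p (smallest adjusted p = 0.335, 0 called). They were ARHGAP30 (0.43 ± 0.08), LCP1, an actin bundler of leukocytes (0.27 ± 0.06), P2RY12 (0.27 ± 0.06), the receptor of double-stranded RNA TLR3 (0.35 ± 0.08) and CD2 (0.70 ± 0.16). GRIN3A, an NMDA receptor subunit gene, was at 0.18 ± 0.04. All were positive, toward heavier animals, and were chosen after their values were seen.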
